A study of Mus musculus with 6 samples.

Results

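The 10 genes described here are core and naive pluripotency factors of the mouse: Pou5f1, Nanog, Sox2, Klf2, Klf4, Klf5, Zfp42, Dppa3, Dppa4 and Tdgf1. They were chosen by name, and all 10 were found once each among the 32285 genes of the count table. RNA was sequenced from GS cells, cultures of mouse spermatogonia that keep the properties of spermatogonial stem cells. The p57 KO group held 3 libraries of the genotype p57 flox/flox-Cre and the control group 3 libraries of p57 flox/flox, so floxed alleles of Cdkn1c, which encodes the cell cycle inhibitor p57, are present in both groups. An adenovirus delivered the Cre recombinase. The cells were harvested 2 days later with trypsin, then run through a Sephadex column before RNA extraction. The sources used here give neither whether control cells received a virus nor the share of cells in which Cre acted. The labels give the age of the mice as 3 days in one place and 10 days in another, and the strain as BDF1 in one place and as C57BL/6 and 129 in another. No label ties the replicates to separate cultures, so the spread behind each p-value is that of 3 libraries a group and may be technical.

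POU5F1 (OCT4), SOX2 and NANOG are the transcription factors at the centre of the network that keeps embryonic stem cells pluripotent, and POU5F1 and SOX2 bind many enhancers and promoters as a pair. KLF2, KLF4 and KLF5 are zinc finger factors that act beside them in the naive state, the state of the early epiblast. Zfp42 (REX1) and Dppa3 (STELLA) are widely used marks of that state. Dppa4 and Tdgf1 (CRIPTO, a co-receptor of Nodal) are used as marks of pluripotent cells more broadly. Cultured spermatogonia are known to express Pou5f1 but not the whole network, and pluripotent colonies can arise from such cultures.

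The promoters of 3 of these genes are shown: Pou5f1 and Zfp42, which were expressed and fell in p57 KO, and Nanog, which had no read in any library. Each line gives the 250 bases before a RefSeq start of the gene (GRCm38.p6), the first one for Pou5f1 and Nanog, which have 2 starts each, 5′ to 3′ on the strand of the gene. Capitals mark 4 motifs searched on both strands: TTTGCAT, the core of the octamer bound by POU factors; the same core followed by any base and then ACAATG, a SOX motif, so that it overlaps the first; GGGCGG, the GC box of SP and KLF factors; and AGGTCA, a half-site of nuclear receptors such as NR5A2.
Pou5f1, chr17:35505782-35506031, plus strand: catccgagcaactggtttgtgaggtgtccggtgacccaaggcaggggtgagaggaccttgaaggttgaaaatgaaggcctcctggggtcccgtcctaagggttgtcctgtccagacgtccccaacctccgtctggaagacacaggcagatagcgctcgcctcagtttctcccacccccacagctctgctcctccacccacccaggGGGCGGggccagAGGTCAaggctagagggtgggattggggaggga
Zfp42, chr8:43307010-43307259, minus strand: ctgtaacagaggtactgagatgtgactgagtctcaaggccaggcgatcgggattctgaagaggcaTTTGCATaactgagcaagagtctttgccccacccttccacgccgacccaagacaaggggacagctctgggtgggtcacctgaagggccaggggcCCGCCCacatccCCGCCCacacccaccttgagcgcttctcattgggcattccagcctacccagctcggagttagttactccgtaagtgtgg
Nanog, chr6:122707239-122707488, plus strand: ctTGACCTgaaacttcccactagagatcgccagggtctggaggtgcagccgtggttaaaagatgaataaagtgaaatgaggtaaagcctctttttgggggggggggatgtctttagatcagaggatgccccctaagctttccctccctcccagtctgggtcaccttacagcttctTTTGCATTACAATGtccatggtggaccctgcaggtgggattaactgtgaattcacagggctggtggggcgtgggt
The joint octamer and SOX motif stood 75 bases before the Nanog start. Among 32851 RefSeq promoter windows of 300 bases (250 before and 50 after the start), 2 held it, or 0.00609%, and both belong to Nanog. These 2 windows overlap and hold the same single site, which lies 151 bases before the second start. The search allowed no mismatch, so the share is that of this exact string, and looser forms of the joint motif were not counted. The octamer core alone was in 4.63% of the windows, and stood in those of Sox2, Zfp42 and Nanog. The first Pou5f1 window held no octamer core, but a GC box and the half-site AGGTCA 45 and 33 bases before the start; these occur in 35.7% and 16.3% of all windows. The window of the second Pou5f1 start held none of the 4 motifs. The Zfp42 window held the octamer core 185 bases before the start and the GC box at 91 and 79 bases, both on the other strand and so printed as CCGCCC. The half-site in the Nanog window, 248 bases before the start, is on the other strand too and printed as TGACCT. Of the 10 genes, 7 had an entry in the RefSeq promoter table; Klf5, Dppa3 and Dppa4 had none. These matches describe letters in a window and not sites that are bound.

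Total counts lay between 15940375 and 17893671 in p57 KO and between 15662833 and 16979459 in control. Levels are given in CPM, read counts scaled to library size with TMM factors, and levels of different genes are compared per kilobase of exon. Cdkn1c averaged 8.89 ± 0.486 CPM in p57 KO and 20.7 ± 0.782 CPM in control (SD, n = 3 each), 42.9% of the control level. The 17 spermatogonial markers, among them Zbtb16, Gfra1, Ret, Ddx4 and Dazl, all had reads in every library, and summed to 4275.7 to 4518.5 CPM in p57 KO and 4885.8 to 4982.3 CPM in control. The 20 fibroblast and feeder cell markers summed to 1505.7, 2019.0 and 2959.7 CPM in p57 KO replicates 1, 2 and 3, against 945.6, 1224.4 and 980.6 CPM in the control replicates. All 20 had a higher mean in p57 KO, in 17 the groups did not overlap, and 5 were called, among them Tagln, Acta2 and Pdgfra (log2 fold changes of 1.44, 1.31 and 0.61); Acta2 lost its call without control replicate 3 (edgeR adjusted p = 0.0778). Of the spermatogonial markers 2 rose (Epcam and Itga6) and 10 fell, among them Id4, Zbtb16 and Dazl with -0.54, -0.34 and -0.25. Over all tested genes 11.6% rose and 11.6% fell, and in 19.5% every p57 KO library lay above every control library. Markers of Sertoli and Leydig cells summed to 41.1 to 43.2 CPM in p57 KO and 38.3 to 44.5 CPM in control, with Hsd3b1, an enzyme of steroid synthesis, at 0 reads in all libraries. Markers of macrophages and endothelium summed to 95.8 ± 1.5 CPM in p57 KO and 97.3 ± 2.39 CPM in control (SD, n = 3 each). This sum joins 2 cell types and hides changes in both directions. Of 7 tested, 4 rose (Lyz2, Cd68, Tek and Cd14) and 2 fell (Kdr and Cdh5).

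Of the core trio, Pou5f1 alone was well expressed. Its level per length was 25.7 ± 1.57 CPM per kilobase in p57 KO and 29.4 ± 2.27 in control (SD, n = 3 each), above 92.9% and 93.9% of 32158 annotated genes. Sox2 stood at 0.353 ± 0.108 CPM per kilobase in p57 KO and 0.437 ± 0.0628 in control. Nanog (chromosome 6, 122707489 to 122714633, plus strand) had 0 reads in all 6 libraries. A count of 0 allows up to 3 reads per library, or 0.168 to 0.189 CPM in p57 KO and 0.177 to 0.192 CPM in control; such limits cover counting error only.

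The other genes spread over a wide range. Dppa4, which encodes a chromatin protein that works with DPPA2, had the highest level per length of the 10, 54.9 ± 2.79 CPM per kilobase in p57 KO and 62.8 ± 2.93 in control. After Pou5f1 came Klf4, with 21.1 ± 2.31 CPM per kilobase in p57 KO and 17.1 ± 2.02 in control, and Zfp42, with 13.4 ± 0.817 and 15.7 ± 0.692 in the same groups. Klf2 had 6.14 ± 0.515 CPM per kilobase in p57 KO and 7.26 ± 0.311 in control, and Klf5 1.30 ± 0.101 in p57 KO and 0.849 ± 0.0968 in control (SD, n = 3 each). The libraries of neighbours in this order did not overlap, with these exceptions. In p57 KO, Dppa3 overlapped Sox2, and Tdgf1 overlapped Nanog. In control, Klf4 overlapped Zfp42, Dppa3 overlapped Tdgf1, and Tdgf1 overlapped Nanog. The lengths are those of all annotated exons of a gene together, and with the longest transcript in their place Pou5f1 stood at 42.5 CPM per kilobase in p57 KO and 48.6 in control.

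**Figure D1:**
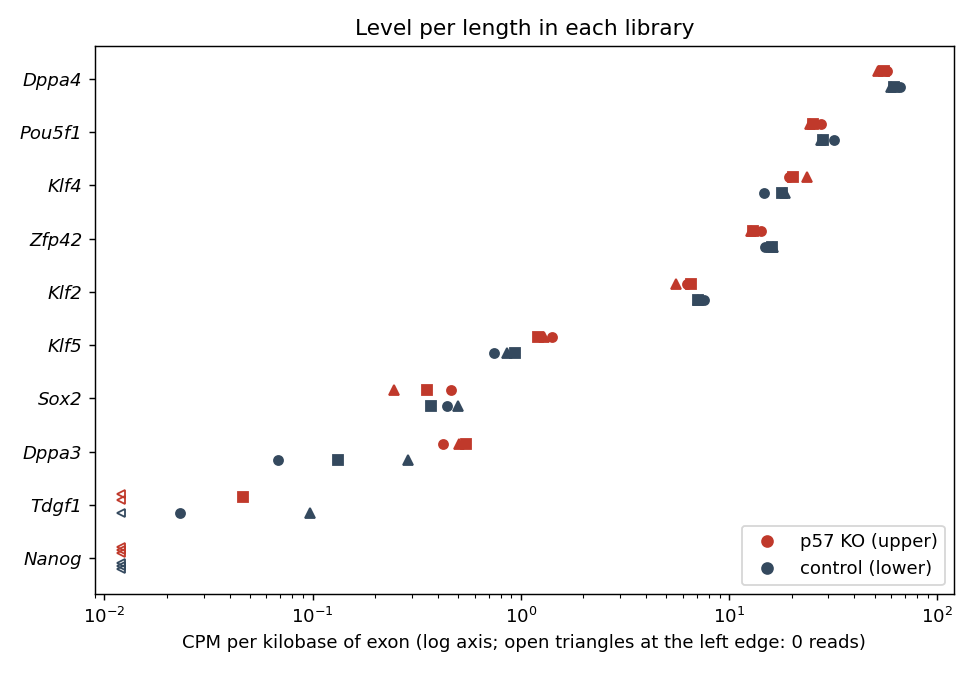
Level of each of the 10 genes in each library, in CPM per kilobase of exon on a log axis, with p57 KO above control; circles, squares and triangles are replicates 1, 2 and 3, and open triangles at the left edge are libraries with 0 reads. Dppa4, Pou5f1, Klf4, Zfp42 and Klf2 lie above 5 CPM per kilobase in every library, Sox2, Dppa3 and Tdgf1 below 1, and Nanog is at 0.

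Other factors of the same families and network were present at a wide range of levels. Sox3, a close relative of Sox2, stood at 18.2 ± 1.25 CPM per kilobase in p57 KO and 18.9 ± 0.735 in control (SD, n = 3 each), and Pou3f1, a POU factor of primed pluripotent cells and of spermatogonia, at 39.9 ± 1.35 and 38.4 ± 1.74 in the same groups. Sall4 and Lin28a, which stem cells of embryo and germ line share, had 30.2 ± 0.958 and 49.3 ± 1.41 CPM per kilobase in p57 KO, against 37.6 ± 1.31 and 49.7 ± 0.781 in control. Esrrb and Tfcp2l1, transcription factors of the naive state, stood at 1.47 ± 0.277 and 1.31 ± 0.0656 CPM per kilobase in p57 KO and at 1.60 ± 0.218 and 1.37 ± 0.0803 in control. The 10 markers of pluripotent cultures fixed beside these genes, Esrrb, Tfcp2l1, Fgf4, Nr0b1, Dppa5a, Utf1, Tdh, Gdf3, Tcl1 and Prdm14, all had reads and summed to 112.7 to 118.6 CPM in p57 KO and 116.1 to 119.4 CPM in control. Of those, Tcl1 made up 75.5, 76.5 and 76.5 CPM in p57 KO and 78.0, 73.7 and 74.5 CPM in control.

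The comparison of p57 KO with control asks how the genes stood 2 days after Cdkn1c was targeted. Of the 10 genes, 7 passed the filter on low counts and were tested, and of these 1 rose (Klf5) and 3 fell (Pou5f1, Zfp42 and Dppa4) at an adjusted p under 0.05 in edgeR's quasi-likelihood test. Over all 14814 tested genes 11.6% rose and 11.6% fell, 23.3% in either direction. An unadjusted p under 0.05 was reached by 5 of the 7 (Klf2 beside these 4) and by 35.6% of all tested genes. The median log2 fold change of the 7 was -0.20, against -0.002 for all tested genes. In 2 of the 7 (Klf4 and Klf5) every p57 KO library lay above every control library, and in 4 (Pou5f1, Klf2, Zfp42 and Dppa4) below; among all tested genes these shares were 19.5% and 19.7%. Nanog, Dppa3 and Tdgf1 did not pass the filter.

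**Figure D2:**
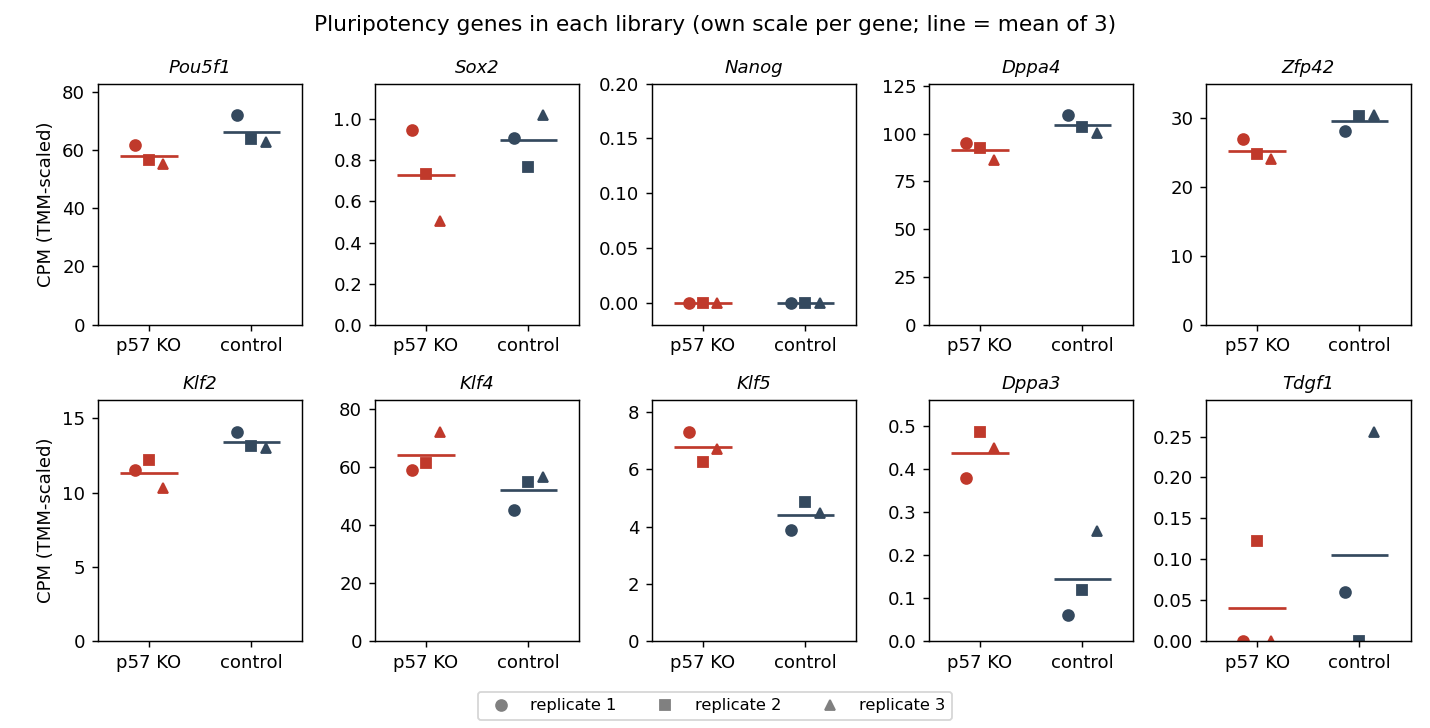
CPM of each gene in each library, p57 KO left of control, with an own axis from 0 for each gene (Nanog at 0 throughout); the line is the mean of 3 libraries. Pou5f1, Dppa4, Zfp42 and Klf2 are lower in all p57 KO libraries than in any control library, and Klf4, Klf5 and Dppa3 higher.

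Pou5f1 (ENSMUSG00000024406; chromosome 17, 35506018 to 35510772, plus strand, mm10), the POU factor without which the embryo forms no pluripotent cells, had 61.8, 56.7 and 55.1 CPM in p57 KO and 72.0, 63.9 and 62.6 CPM in control. All p57 KO libraries lay below all control libraries, though p57 KO replicate 1 was within 1 CPM of control replicate 3. On the log2 scale the difference was -0.19 (edgeR adjusted p = 0.0193, SE 0.06), so that p57 KO stood at 87.5% of the control level. The call was lost without control replicate 1, the highest library (-0.13, edgeR adjusted p = 0.11), without the second p57 KO library (-0.18, 0.0921) and without the third (-0.16, 0.059). An antisense gene, Gm19553, shares 317 bases of exon with Pou5f1 on the other strand and had 0 to 2 reads per library. In bulk RNA, fewer cells that express a gene and less RNA per cell cannot be told apart, here and below.

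Dppa4 (chromosome 16, 48283733 to 48294237, plus strand) had 95.0, 92.7 and 86.1 CPM in p57 KO and 109.7, 103.4 and 100.1 CPM in control. The groups did not overlap. Dppa4 fell to 91.3 ± 4.64 CPM in p57 KO, against 104.4 ± 4.87 CPM in control (SD, n = 3 each; log2 fold change -0.20, SE 0.04, edgeR adjusted p = 0.00212). It was called in each of the fits that left out 1 library, with log2 fold changes from -0.23 to -0.15. Its partner gene Dppa2 averaged 12.5 ± 1.12 CPM in p57 KO and 13.0 ± 1.31 CPM in control, with overlapping libraries and a log2 difference of -0.06 (edgeR adjusted p = 0.718, SE 0.10).

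Zfp42 (chromosome 8, 43295063 to 43306980, minus strand), whose zinc finger protein REX1 is used to report the naive state, had 26.9, 24.7 and 24.0 CPM in p57 KO and 28.1, 30.2 and 30.4 CPM in control. Here too every p57 KO library was lower. The difference was -0.23 on the log2 scale (edgeR adjusted p = 0.0144, SE 0.07). The adjusted p was 0.0803 in DESeq2, and in edgeR 0.0538 and 0.0653 without p57 KO replicate 2 or 3 and 0.0584 and 0.0674 without control replicate 2 or 3, at log2 fold changes from -0.22 to -0.20.

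The ratios between these 3 genes differed little between the groups. The log2 ratio of Pou5f1 to Dppa4 within a library averaged -0.66 ± 0.045 in p57 KO and -0.66 ± 0.046 in control (SD, n = 3 each; exact two-sided permutation test, p = 1.0), and that of Pou5f1 to Zfp42 1.2 ± 0.0031 in p57 KO and 1.16 ± 0.17 in control (p = 0.8 in the same exact permutation test). These 2 ratios are among 7 pairs of the 10 genes compared in this way, a choice made after the values were seen.

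Sox2 (chromosome 3, 34650405 to 34652461, plus strand), a gene of 1 exon, had 15, 12 and 9 reads in p57 KO and 15, 13 and 16 reads in control, or 0.947, 0.731 and 0.504 CPM in p57 KO and 0.910, 0.765 and 1.02 CPM in control. The groups overlapped, and the log2 fold change of -0.31 had an SE of 0.36 (edgeR adjusted p = 0.575), so that a change of the size seen in Pou5f1 was not detectable at this depth. Sox2 lies within Sox2ot, a non-coding gene on the same strand that shares no exon base with it and had 0 to 2 reads per library.

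Of the 3 Krüppel-like factors, Klf5 was called and Klf4 and Klf2 were not. Klf5 (chromosome 14, 99298691 to 99315036, plus strand), needed in mice for the first cell lineages of the embryo, had 7.32, 6.27 and 6.72 CPM in p57 KO and 3.88, 4.88 and 4.47 CPM in control. The lowest p57 KO library was above the highest control library. Klf5 rose to 6.77 ± 0.527 CPM in p57 KO, against 4.41 ± 0.504 CPM in control (SD, n = 3 each; log2 fold change 0.62, SE 0.15, edgeR adjusted p = 0.00372), which is 153.4% of the control level. It was called in every fit that left out 1 library, with log2 fold changes from 0.53 to 0.69. These rest on 103 to 120 reads per p57 KO library and 64 to 83 per control library.

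Klf4 (chromosome 4, 55527143 to 55532466, minus strand), one of the original reprogramming factors and also a gene of fibroblasts and epithelia, had 59.0, 61.5 and 72.3 CPM in p57 KO and 45.2, 55.0 and 56.5 CPM in control. The groups did not overlap, but both spread widely, and p57 KO replicate 3 was the highest library and control replicate 1 the lowest. The difference was 0.30 on the log2 scale (edgeR adjusted p = 0.153, SE 0.12), which is no call. It was called, at 0.30 to 0.31, in DESeq2 (adjusted p = 0.0065), in limma-voom (adjusted p = 0.0268), in edgeR without robust estimates of the dispersion (adjusted p = 0.0223) and in edgeR with no filter on low counts (adjusted p = 0.000671). Klf4 and the summed fibroblast markers had the same order in the p57 KO libraries, highest in replicate 3. In control both were lowest in replicate 1, but Klf4 was highest in replicate 3 and the markers in replicate 2. The part of these markers in the Klf4 values was not tested.

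Klf2 (chromosome 8, 72319033 to 72321656, plus strand) had 11.5, 12.2 and 10.3 CPM in p57 KO and 14.1, 13.1 and 13.0 CPM in control. All p57 KO libraries were lower, by 0.24 on the log2 scale (edgeR adjusted p = 0.0800, SE 0.10), a difference that did not pass the threshold. The ratios of these genes within a library do not depend on the scaling. The log2 ratio of Klf5 to Klf2 averaged -0.74 ± 0.19 in p57 KO and -1.61 ± 0.22 in control, a difference of 0.87. That of Klf4 to Klf2 averaged 2.50 ± 0.27 in p57 KO and 1.96 ± 0.24 in control, a difference of 0.54. That of Klf5 to Klf4 averaged -3.24 ± 0.21 in p57 KO and -3.56 ± 0.085 in control, a difference of 0.32 (SD, n = 3 each). In each of these ratios, and in those of Klf5 and of Klf4 to Pou5f1 (differences of 0.81 and 0.49), every p57 KO library was above every control library. The exact two-sided permutation test gave p = 0.1 for each of these 5 pairs, the smallest that 3 against 3 libraries allow, and 0.14 after Benjamini-Hochberg adjustment over the 7 pairs.

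**Figure D3:**
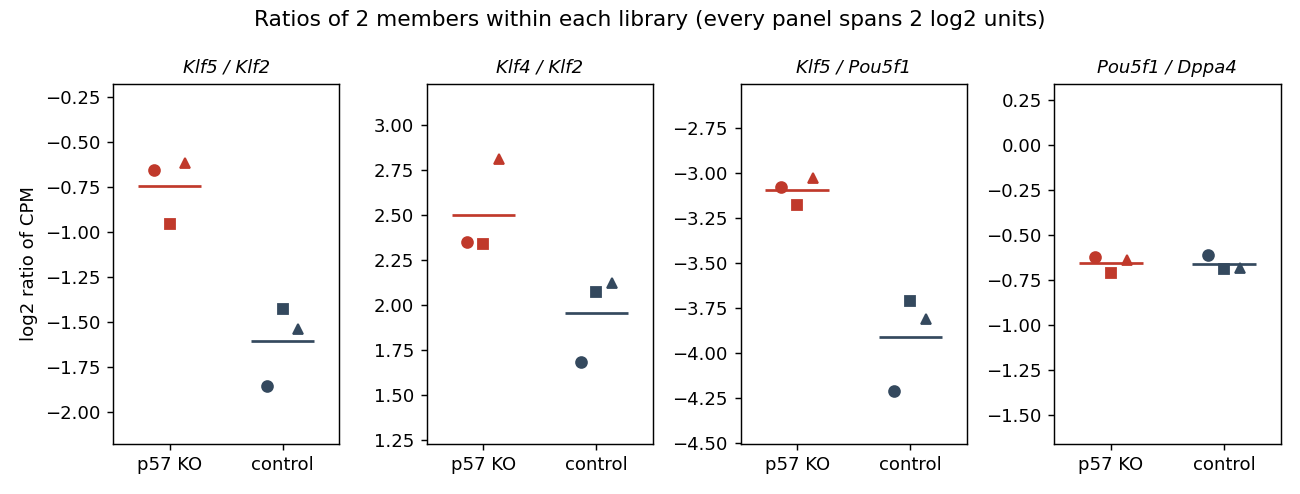
Log2 ratio of the CPM of 2 genes within each library, p57 KO left of control; the line is the mean of 3 libraries and each panel spans 2 log2 units. The ratios of Klf5 to Klf2, Klf4 to Klf2 and Klf5 to Pou5f1 are higher in every p57 KO library, and that of Pou5f1 to Dppa4 is -0.66 on average in both groups.

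Dppa3 and Tdgf1 had few counted reads. How reads with several matches were treated is not given. Dppa3 (chromosome 6, 122626410 to 122630272, plus strand), a maternal factor that protects DNA methylation in the zygote and marks primordial germ cells, had 6, 8 and 8 reads in p57 KO and 1, 2 and 4 reads in control. The groups did not overlap, with 22 reads in p57 KO and 7 in control over 3 libraries each. Among the 8386 genes with a read that were not tested, 8.34% were higher in every p57 KO library than in any control library. That share includes genes with too few reads to meet it, and among tested genes it was 19.5%. Fitted with no filter on low counts, Dppa3 gave 1.57 on the log2 scale (edgeR adjusted p = 0.0951, SE 0.67), which is no call. Tdgf1 (chromosome 9, 110939603 to 110946158, minus strand) had 0, 2 and 0 reads in p57 KO and 1, 0 and 4 reads in control, which overlap. Its ligand gene Nodal and the Nodal targets Lefty1 and Lefty2 were at most 0.168, 0.056 and 0.0609 CPM in p57 KO, and at most 0.243, 0.0639 and 0 CPM in control.

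The fibroblast markers moved with the group, and the fit was repeated with their mean log2 level per library, called the fibroblast score, as a covariate. The score was 0.04, 0.64 and 1.16 in the p57 KO libraries and -0.84, -0.24 and -0.77 in control, so that the groups did not overlap in it. With the score in the edgeR model none of the 7 tested genes was called, and of all tested genes 1.62% rose and 1.07% fell. Klf5 kept its size at 0.63 with a wider error (SE 0.26, adjusted p = 0.231). Pou5f1 had -0.0047 (SE 0.09, adjusted p = 0.991), Dppa4 -0.06 (SE 0.07, adjusted p = 0.784) and Zfp42 -0.13 (SE 0.13, adjusted p = 0.718). Klf4 had -0.02 (SE 0.10, adjusted p = 0.96), against 0.30 without the score. The part of these markers in the changes was not tested.

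**Figure D4:**
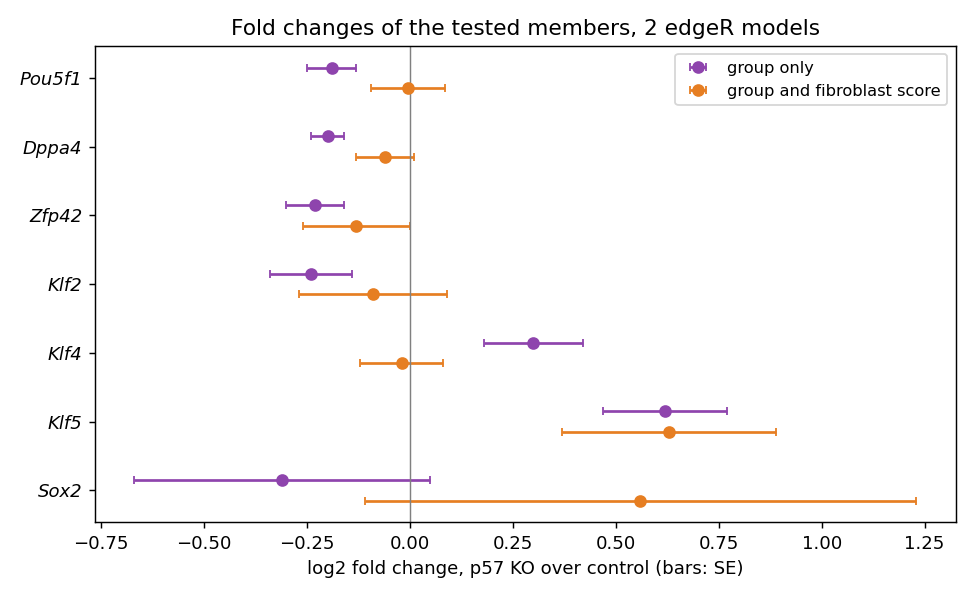
Log2 fold change of the 7 tested genes, p57 KO over control, with the SE as bars, from edgeR with the group alone and with the group and the fibroblast score. Klf5 lies at 0.62 and 0.63 in the 2 models, and Pou5f1 at -0.19 and -0.0047.

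The other genes of the network were described with a list of 69 genes in 4 groups: the naive network, the primed state, LIF and STAT3, and Nodal and CRIPTO. Of these, 51 were tested, and 6 rose and 13 fell, with a median log2 fold change of -0.03. Over all tested genes 11.6% rose and 11.6% fell, shares that stand beside these counts and those of each group below. Without p57 KO replicate 2 the number that rose was 3, and with the fibroblast score 1 rose and 3 fell. With that score 1.62% of all tested genes rose and 1.07% fell. In the naive network 2 of 25 tested genes rose and 7 fell. Myc, the growth factor-responsive partner of the reprogramming factors, rose to 5.43 ± 0.863 CPM in p57 KO, against 1.82 ± 0.27 CPM in control (SD, n = 3 each; edgeR adjusted p = 4.45e-06 for a log2 fold change of 1.58, SE 0.19), while its paralog Mycn fell to 95.7 ± 2.4 CPM, against 111.2 ± 4.87 CPM in control (-0.22, SE 0.04, edgeR adjusted p = 0.000301). Sall4, a zinc finger partner of POU5F1, fell to 167.4 ± 5.3 CPM in p57 KO, against 208.2 ± 7.26 CPM in control (-0.31, SE 0.03, edgeR adjusted p = 6.34e-07). Trim71, an RNA-binding protein whose mRNA let-7 represses, had 544.4, 508.6 and 498.9 CPM in p57 KO and 626.5, 628.6 and 647.5 CPM in control (log2 fold change -0.29). Myc, Sall4 and Trim71 kept their call with the fibroblast score, at 1.14, -0.25 and -0.18 (edgeR adjusted p = 0.0443, 0.0134 and 0.0228).

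Nr5a2, a nuclear receptor that binds the Pou5f1 promoter in embryonic stem cells, Nacc1, Sall1 and Zfp281 fell by 0.23, 0.18, 0.18 and 0.16 on the log2 scale, and Zfp296 rose by 0.32. Zfp296 lost its call without p57 KO replicate 2 (edgeR adjusted p = 0.0803) and without control replicate 1 or 2 (0.0593 and 0.074), and in DESeq2 (0.0769). With the fibroblast score, Nacc1 had -0.13 (edgeR adjusted p = 0.271), Sall1 -0.05 (0.809), Zfp281 -0.14 (0.363), Zfp296 0.33 (0.393) and Mycn -0.20 (0.146), and none of these was called. Nr5a2 averaged 60.3 ± 1.35 CPM in p57 KO and 70.6 ± 1.09 CPM in control (edgeR adjusted p = 0.000456; 0.319 with the fibroblast score). Lin28a, which blocks the processing of let-7, had 197.2 ± 5.65 CPM in p57 KO and 198.6 ± 3.12 CPM in control (SD, n = 3 each; edgeR adjusted p = 0.844). Esrrb, Tfcp2l1, Tcl1 and Dppa5a were not called, with log2 fold changes of -0.13, -0.05, 0.01 and -0.02; those of Esrrb, Tcl1 and Dppa5a changed sign in at least 1 fit that left out a library. Nr5a2, Sall1, Zfp281, Zfp296, Esrrb, Tfcp2l1 and Tcl1 were named after their values were seen.

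Among 7 tested markers of the primed state, Dnmt3b, a DNA methyltransferase, rose to 83.3 ± 2.43 CPM in p57 KO, against 75.6 ± 0.344 CPM in control (log2 fold change 0.14, edgeR adjusted p = 0.0118). Its call was lost in DESeq2 (adjusted p = 0.0631) and in edgeR without p57 KO replicate 2 (adjusted p = 0.0653) or with the fibroblast score (0.19, adjusted p = 0.219). Fst, which encodes the activin antagonist follistatin, fell to 64.8 ± 3.35 CPM, against 90.4 ± 2.15 CPM in control (-0.48, SE 0.04, edgeR adjusted p = 8.1e-08; -0.36 with the fibroblast score, adjusted p = 0.00552). Pou3f1 averaged 153.4 ± 5.21 CPM in p57 KO and 147.8 ± 6.7 CPM in control, without a call. Otx2 and Fgf5, defining genes of primed cells, were at or under 0.252 and 0.168 CPM in p57 KO and at or under 0.0639 and 0.128 CPM in control. Otx2 had 4, 4 and 3 reads in p57 KO and 1, 0 and 1 reads in control. Its groups did not overlap, with p57 KO higher. The same held for 8.34% of the genes with a read that were not tested and for 19.5% of tested genes. The first share includes genes with too few reads to meet it.

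Of 11 tested genes of the LIF and STAT3 pathway, which maintains naive mouse stem cells through KLF4 and other targets, 2 rose and 2 fell. Lif, the ligand, had 8.52, 13.3 and 17.7 CPM in p57 KO and 3.22, 4.53 and 4.28 CPM in control. It was higher in every p57 KO library. Its order among the p57 KO libraries was that of the fibroblast markers, whose part in the Lif values was not tested. The difference was 1.72 on the log2 scale (edgeR adjusted p = 0.0206, SE 0.33). The call was lost without p57 KO replicate 2 (edgeR adjusted p = 0.0602), without control replicate 1, 2 or 3 (0.0882, 0.0627 and 0.0862) and with the fibroblast score (0.60, adjusted p = 0.173). The pathway genes Fosl2, Pim1 and Stat3 had log2 fold changes of 0.31, -0.33 and -0.08 and were called. With the fibroblast score these were 0.15 (edgeR adjusted p = 0.63), -0.22 (0.104) and -0.04 (0.768), and no call was left. Stat3 kept its call without p57 KO replicate 1 and lost it without each of the other libraries (edgeR adjusted p from 0.0572 to 0.0952). Socs3, a feedback inhibitor that STAT3 induces, averaged 165.9 ± 5.08 CPM in p57 KO and 158.9 ± 2.06 CPM in control (SD, n = 3 each; log2 fold change 0.06, edgeR adjusted p = 0.167), and the receptor gene Lifr 57.9 ± 2.9 and 62.1 ± 0.977 CPM in the same groups (-0.10, adjusted p = 0.118).

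Of 8 tested genes of Nodal and activin signalling, in which CRIPTO acts, Smad3 rose with 0.19, and Smad4, Acvr2b and Acvr1b fell with -0.17, -0.21 and -0.17 as log2 fold changes. Acvr1b, the type I receptor, lost its call without p57 KO replicate 2 (edgeR adjusted p = 0.0656), without control replicate 1 (0.0705) and in DESeq2 (0.0801), and Acvr2b without p57 KO replicate 3 (0.0507). None of these 4 was called with the fibroblast score. The abundant Smad2 and Smad7 were not called (-0.03 and -0.04).

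The counts for the families of the 10 genes stand beside the 23.3% of all tested genes that were called in either direction, 11.6% in each. Of 17 other KLF and SP genes tested, Klf3 rose (0.34) and Klf13, Klf12, Sp4 and Klf16 fell (-0.20, -0.45, -0.17 and -0.14). Klf3 and Klf16 lost their call in 4 and 5 of the 6 fits that left out 1 library, and Klf12 without control replicate 3 (edgeR adjusted p = 0.0637). In DESeq2 the adjusted p was 0.071 for Klf3, 0.1 for Klf12, 0.0921 for Sp4 and 0.156 for Klf16, so that Klf13 alone of the 5 was called. With the fibroblast score none of the 5 was called, and Klf3 had 0.05. Klf6, chosen after its values were seen, had 16.9, 20.9 and 29.2 CPM in p57 KO and 12.7, 15.4 and 13.8 CPM in control, and a log2 difference of 0.68 (edgeR adjusted p = 0.118, SE 0.24) that is no call. It was called in DESeq2 (adjusted p = 0.0364), in limma-voom (adjusted p = 0.0179) and in edgeR without robust estimates (adjusted p = 0.00848), and had -0.14 with the fibroblast score (adjusted p = 0.761). Of 12 other SOX genes tested, 6 fell and 0 rose, with a median log2 fold change of -0.18. Sox4, the most abundant of these, fell to 271.8 ± 8.82 CPM in p57 KO, against 323.8 ± 6.29 CPM in control (SD, n = 3 each; -0.25, SE 0.03, edgeR adjusted p = 2.1e-06), and Sox13, Sox12, Sox18, Sox6 and Sox11 had -0.34, -0.31, -0.61, -0.60 and -0.19. Sox11 and Sox6 lost their call in 5 and 3 of the 6 fits that left out 1 library and in DESeq2 (adjusted p = 0.0543 and 0.0877), and with the fibroblast score only Sox4 of the 6 was called (-0.21, adjusted p = 0.0217). Sox3 averaged 37.5 ± 2.58 CPM in p57 KO and 39.0 ± 1.52 CPM in control, with overlapping libraries (-0.06, edgeR adjusted p = 0.533).

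Of 7 other POU genes tested, Pou2f3 rose (0.61) and Pou4f1 and Pou2f1 fell (-0.51 and -0.20); Pou2f3 lost its call in 3 of the 6 fits that left out 1 library, in DESeq2 and in limma-voom, and Pou2f1 without p57 KO replicate 2 (edgeR adjusted p = 0.0543). With the fibroblast score none of the 3 was called. Pou5f2, the closest relative of Pou5f1, was not tested. Dppa2 is a relative of Dppa4 and Yy1 of Zfp42, while Dppa5a shares with Dppa4 the name but not the protein family. Of these 3 tested genes 0 were called in edgeR. No unadjusted p of the 3 was under 0.05, and 0 were called in DESeq2.

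**Figure D5:**
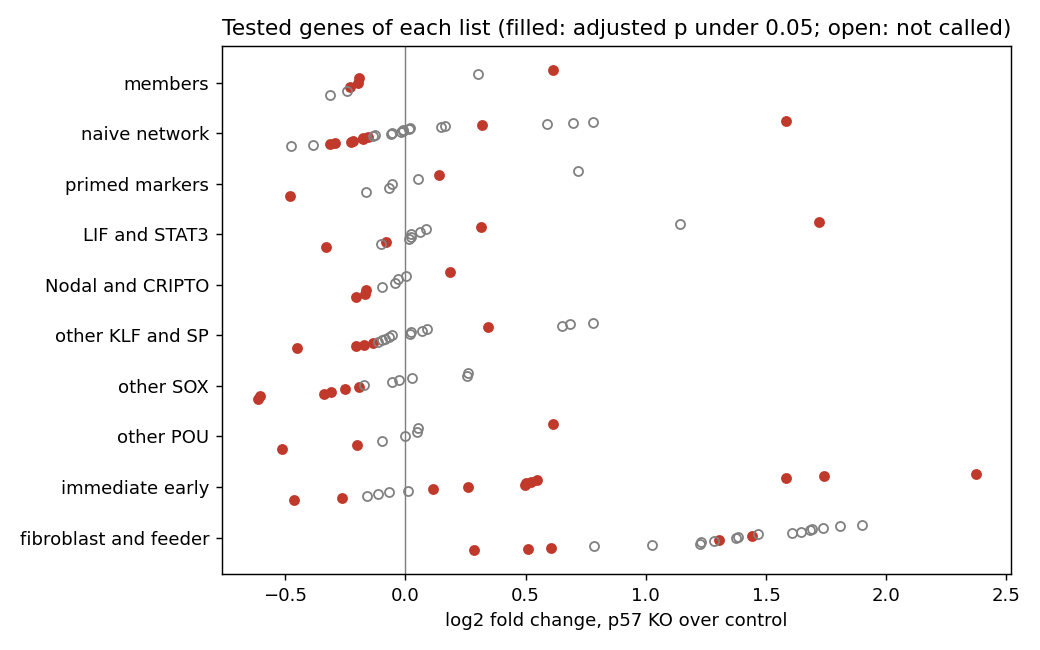
Log2 fold change, p57 KO over control, of every tested gene of each list; filled points passed an adjusted p of 0.05 and open points did not. The fibroblast and feeder genes all lie above 0, and 6 of the 12 other SOX genes are filled, all below 0.

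Immediate early genes, which cell dissociation and stress can induce, moved with the group too. Of 15 tested, 9 rose and 2 fell (Egr3 and Egr2), beside 11.6% of all tested genes in each direction. Their summed level was 1519.6, 1443.1 and 1584.8 CPM in p57 KO and 1348.7, 1284.1 and 1372.2 CPM in control. Atf3, Jun and Ier3 rose by 2.37, 1.74 and 0.52 on the log2 scale. The part of these genes in the values of Klf4, Klf5 and the others was not tested.

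For the 6 genes of at least 5 CPM, the tested genes with the most similar profile over the 6 libraries were sought by Pearson's r of log2 CPM among 11140 genes of at least 5 CPM. Nearest to Pou5f1 were Cramp1l, Unc13b and Cdca7 (r from 0.988 to 0.989), to Dppa4 Bicc1, Mypn and Zfp507 (0.997 each) and to Zfp42 Clcf1, Zfp800 and Hook1 (0.995 to 0.999). Nearest to Klf5 were Cit, Wdr53 and Map3k9 (0.992 to 0.998), to Klf4 Slc35e3, Surf1 and Nfkb1 (0.984 to 0.993) and to Klf2 Slc25a46, Fopnl and Spn (0.994 to 0.998). The points are 6 libraries in 2 groups, and the values are given as a description. None of the 6 genes was among the 3 nearest of another, a list too short to show whether they varied together.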

How the data were processed

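Whole-number counts per gene were deposited by the authors for 3 p57 KO and 3 control libraries, without normalization. The mouse build mm10 and the tools HTSeq 2.0.2, HISAT2 2.2.1, cutadapt 3.4 and bcl2fastq 2.20 are listed, per the submitters' processing notes. The sources used here do not give annotation, strand setting or treatment of reads with several matches, so overlapping genes and near-identical copies are uncertain. Positions and exon lengths came from GENCODE M21 (same build), which held 32158 of the 32285 gene identifiers, and promoter sequences from RefSeq (GRCm38.p6).

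Genes were filtered with edgeR's filterByExpr, scaled by TMM and tested by quasi-likelihood (R 4.3.3 with limma 3.58.1 and edgeR 4.0.16; group as the only term, robust dispersions, Benjamini-Hochberg adjustment over 14814 genes, threshold 0.05). On simulated data for p57 KO against control over 14633 genes, the test recovered 47.8%, 69.2% and 87.9% of genes changed 1.2-, 1.5- and 2-fold. There were 21 false calls among 156, a larger share than the threshold of 0.05. The simulation changed 67, 65 and 66 genes at these folds, far fewer than the 3450 called in the data, so its rates may not carry over. Every pair of replicates differed by more than sampling noise (chi-square per degree of freedom 1.69 to 5.97).

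The genes and lists were chosen with earlier results of these data known. Genes were named by rule: the 10 genes; per network or family list up to 5 called genes of smallest p and the 3 most abundant; up to 3 of smallest p for immediate early, spermatogonial and fibroblast genes; and 3 of most similar profile. Other names were chosen after their values were seen. As alternatives, limma-voom, DESeq2 1.42.0, RLE size factors, other filters, no robust estimation, the replicate number as a block, a fibroblast score from 20 markers, and each library left out were run.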

Additional observations from a re-analysis of the deposited data

How the results depend on the processing

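Of the 7 tested genes, Dppa4 and Klf5 kept direction and call in every alternative run except the fibroblast score, with which Dppa4 had -0.06 and Klf5 0.63. The number that rose was 2, with Klf4 added, in DESeq2, limma-voom, with no filter, without robust estimation and with the replicate block, and 0 with the fibroblast score. The number that fell was 0 with that score and 1 to 3 when single libraries were left out (1 without p57 KO replicate 2 or 3). Klf4 had 0.30 in DESeq2, with no filter, without robust estimation and with the replicate block (edgeR adjusted p = 4.68e-05 with the block, which also called Klf6 at 0.66, adjusted p = 0.00315), 0.31 in limma-voom and -0.02 with the fibroblast score. Zfp42 had -0.23 in DESeq2 (adjusted p = 0.0803) and -0.13 with the score, Pou5f1 -0.0047 and Sox2 0.56. Leaving out single libraries gave -0.25 to -0.13 for Pou5f1 and -0.28 to -0.20 for Zfp42. Of the 69 other genes, 3 to 8 rose when single libraries were left out, and 1 rose and 3 fell with the score. The cause was not tested.

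Some other genes without a call changed sign. When single libraries were left out, Lin28a ranged from -0.04 to 0.0023, Sp3 from -0.04 to 0.05, Pou6f1 from -0.07 to 0.16, Dppa2 from -0.13 to 0.01, Dppa5a from -0.07 to 0.05, Esrrb from -0.24 to 0.02 and Tcl1 from -0.0039 to 0.04. With the score Smad2 had 0.03, Smad7 0.04, Pou6f1 -0.43, Dppa5a 0.18, Klf6 -0.14 and Sox3 0.14. With the length of the longest transcript, the levels per kilobase of Pou5f1, Klf5 and Dppa4 were 42.5, 2.02 and 61.7 in p57 KO and 48.6, 1.32 and 70.6 in control.

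The replicate numbers come from the sample titles, which use the same numbers in both groups, and whether they pair the libraries is not known. Deviations of same-numbered libraries from their group means correlated at 0.19, 0.02 and -0.10 over the tested genes. The highest value was that of p57 KO replicate 3 with control replicate 2 (0.27). With 3 libraries a group, centred on their own mean, these values cannot decide whether the numbers mark a pairing. Over all genes, 1934 rose and 1772 fell with the block, against 1725 and 1725 without it. Depth limits Sox2, Dppa3, Tdgf1 and Nanog, and a count of 0 allows up to 3 reads per library.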
